A study of Mus musculus with 14 samples.

Results

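Cytosolic ribosomal protein genes were examined in bulk RNA-seq of control and plexiform neurofibroma (PN) tissue from mice. The genes were the rows of the count table whose symbol was *Rpl* or *Rps* followed by a number and an optional letter a, l, or x, or was *Rplp0*, *Rplp1*, *Rplp2*, or *Rpsa*. This rule, which used no measured value, gave 81 genes of 24062, of which 32 encode proteins of the small subunit and 49 proteins of the large subunit or their close copies. The controls were dorsal root ganglia (DRGs) with their nerves from mice labelled *Nf1fl/fl*, which carry floxed *Nf1* alleles and no Cre by their label (n = 3). The tumors were PNs from *DhhCre;Nf1fl/fl* mice, in which Cre under the *Dhh* promoter removes *Nf1* from Schwann cells (SCs) and their precursors during embryonic development, so that other cells of the PN keep the gene. No mouse received a drug, and all 3 groups share a mixed background of C57BL/6, I-129, and FVBN, and the methods of the study give an age of 9 months, while a figure legend calls the PNs 7-month PNs. PNs were sorted by their volume on MRI, 2 months apart. Slow-growing PNs (n = 5) changed by under 5 mm3, and fast-growing PNs (n = 6) gained over 35 mm3. Each library was taken to come from a different mouse, and the p-values below measure only the spread between these libraries.

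The cytosolic ribosome translates nuclear-encoded mRNA into protein. Its small subunit reads the mRNA and its large subunit joins amino acids, and each protein of a subunit is usually present in a single copy per ribosome. Transcription factors such as MYC raise the synthesis of ribosomal protein mRNAs, while mTORC1 signaling, which is active where *Nf1* is lost, controls their translation through a run of pyrimidines at their 5′ end. Ribosomal protein mRNAs are short and abundant, and so any step of library preparation or counting that depends on transcript length bears on them as a group.

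Between 9596773 and 17594164 counts fell on genes in the 14 libraries, and 3 counts, taken as the lowest level that could be seen, were worth between 0.166 and 0.317 CPM (the unit of level used below, which sets a gene's counts against the total of its library after TMM scaling). *Nf1* was at 131 to 229 CPM in controls, 224 to 292 CPM in slow-growing PNs, and 224 to 276 CPM in fast-growing PNs. Its log2 fold change was 0.54 in slow-growing PNs (adjusted p = 0.127, edgeR) and 0.46 in fast-growing PNs (adjusted p = 0.0718, edgeR). These counts could not check a genotype, since they do not separate the floxed exons and come from all cells of the tissue. Libraries differed in tissue makeup. The summed level of 14 skeletal muscle genes was 3858 to 15851 CPM in controls, 30.9 to 3690 CPM in slow-growing PNs, and 80.0 to 2409 CPM in fast-growing PNs. The summed level of 9 fat genes was 2101 to 2957 CPM in controls, 14.5 to 1195 CPM in slow-growing PNs, and 32.8 to 161 CPM in fast-growing PNs. The summed level of 8 sensory neuron genes was 19.3 CPM in fast-growing PN 1191, against 945 CPM or more in every other library, and the 6 SC genes were present in all 14 libraries, at 2027 CPM or more. *Rn45s*, the row of the ribosomal RNA precursor, took 16.2% to 17.6% of the counts in controls and 3.48% to 18.1% in PNs. In whole tissue, fewer cells of a type and less RNA per cell cannot be told apart.

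Ribosomal protein genes took a smaller part of the counts in PNs than in controls. They held 1.63%, 2.60%, and 2.39% of the counts on genes in controls 3, 4, and 5. In slow-growing PNs they held 0.993%, 1.14%, 1.05%, 0.832%, and 1.05% (1079, 1198A, 1202, 1203, and 1206). In fast-growing PNs the share was between 1.08% and 1.5%, with a median of 1.29%. Every PN was below every control, and the slow- and fast-growing PNs overlapped. The mean share of the 3 controls was 2.21% ± 0.512 (SD), that of the 5 slow-growing PNs 1.01% ± 0.115, and that of the 6 fast-growing PNs 1.31% ± 0.164. With 46 abundant, muscle, and fat rows left out of the total, the means were 3.13%, 1.31%, and 1.69% in the same order. The median level over the 73 genes with a mean of at least 10 CPM was 277 ± 68.5 CPM in controls, 111 ± 19.0 CPM in slow-growing PNs, and 147 ± 27.5 CPM in fast-growing PNs. The balance between the subunits also differed, since small-subunit genes held 35.9% to 39.5% of the ribosomal protein counts in controls, 31.6% to 34.2% in slow-growing PNs, and 32.2% to 34.7% in fast-growing PNs. These ranges of controls and PNs did not overlap, and the balance was not tested.

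**Figure D1:**
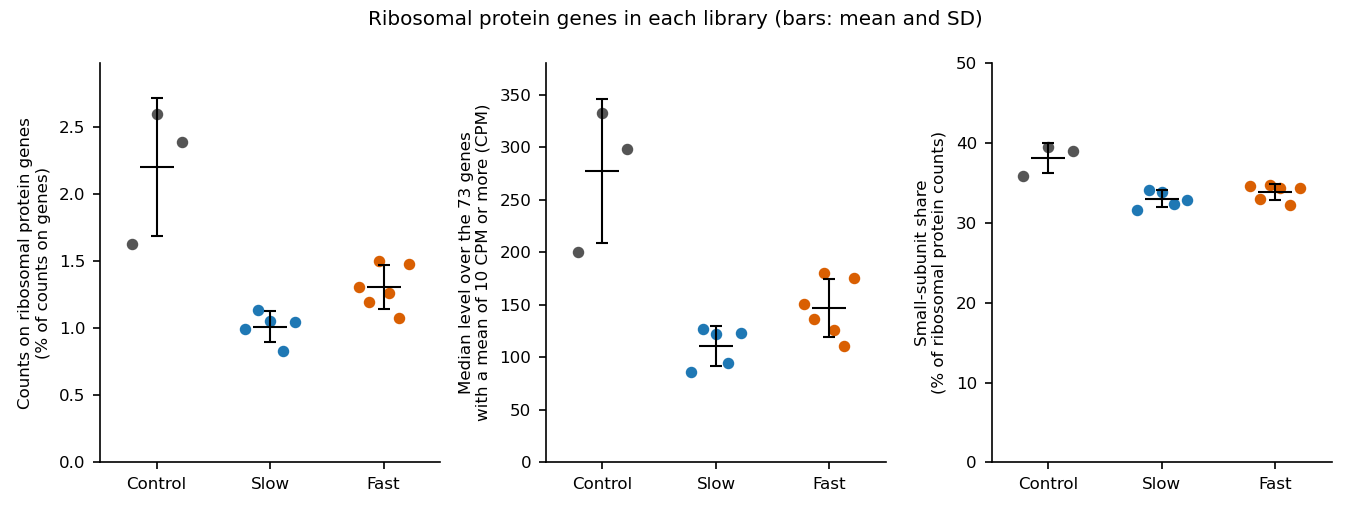
Each point is 1 library and the bars give the mean and SD of controls (n = 3), slow-growing PNs (n = 5), and fast-growing PNs (n = 6). The left panel gives the percentage of counts on the 81 ribosomal protein genes, the middle panel the median level of the 73 of them with a mean of at least 10 CPM, and the right panel the percentage of these counts on small-subunit genes. Every PN lies below every control in all 3 panels.

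The controls were not alike. Among the 73 genes with a mean of at least 10 CPM, control 3 was the lowest control for 72, and control 4 was the highest of all 14 libraries for 62 and control 5 for 11. At the other end, slow-growing PN 1079 was the lowest of all libraries for 48 of these genes and slow-growing PN 1203 for 22. Control 3 also had the lowest muscle total of the controls, at 3858 CPM against 8937 and 15851 CPM, and the lowest total of 4 lymphocyte genes, at 24.6 CPM against 560.3 and 451 CPM in controls 4 and 5. Slow-growing PNs 1079 and 1203 had muscle totals of 3527 and 1114 CPM. Control 3 had more of the 8 sensory neuron genes (3451 CPM against 1570.1 and 945 CPM) and of the 6 SC genes (6151 CPM against 2311 and 2027 CPM), and less of the 4 macrophage genes (61.5 CPM against 254 and 207 CPM). Slow-growing PN 1203 had the highest neuron total of all libraries, at 8346 CPM. *Rn45s*, the ribosomal RNA precursor, took 3.48% of the counts in slow-growing PN 1079 and 6.49% in 1203, below the other slow-growing PNs, at 9.40% to 15.3%, and the controls, at 16.2% to 17.6%. The part of these in the levels of ribosomal protein genes was not tested.

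Levels between genes were compared per kilobase of transcript, using the transcript of each gene that the GENCODE annotation pairs with RefSeq. *Rpl41*, which encodes the smallest protein of the large subunit, had the highest mean over all libraries, at 941 CPM per kilobase, followed by *Rpl10*, whose protein joins the large subunit late in its assembly, at 811, and *Rpl9* at 523. In controls, slow-growing PNs, and fast-growing PNs, *Rpl41* was at 1625, 623, and 864 CPM per kilobase, *Rpl10* at 938, 674, and 861, and *Rpl9* at 795, 393, and 494. *Rpl41* had the higher mean of the pair in controls and *Rpl10* in slow-growing PNs, and their means in fast-growing PNs differed by less than the SD of either gene. The order over all libraries did not hold in controls, where *Rps29* was at 988 CPM per kilobase, above *Rpl10*, and *Rpl23a* at 813, above *Rpl9*. Both are named here after their values were seen. At the low end, 6 genes had means below 1 CPM. *Rpl26* and *Rpl10l* had 0 counts in every library, and a count of 0 allows a level of up to 0.317 CPM in the library where it is highest. The annotation holds named pseudogenes for 60 of the 81 genes, 292 in all, including 6 for *Rpl26* and 9 for *Rpl30*. The sources used here do not state how reads that match several places were counted, and so a low row of such a gene is uncertain. Another annotated gene, often a small nucleolar RNA in an intron, overlaps 27 of the 81 genes on the same strand and 18 on the opposite strand, and strand use in counting is not given either.

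The sequences in front of the genes are shown for those at both ends of the response, since these genes otherwise moved together. RefSeq promoters (GRCm38.p6, 250 bases before to 50 after a start site) were matched for 60 of the 81 genes. The following are the 120 bases before the RefSeq start site, 5′ to 3′ on the strand of the gene. They are given for the 3 genes with the largest and the 3 with the smallest difference in slow-growing PNs. They were chosen after their values were seen, among the genes with a mean of at least 10 CPM and a RefSeq start no more than 30 bases inside the transcript used here. Capitals mark matches to the letters CCGGAAG (the core of ETS-family sites), ATGGCG (the core of YY1 sites), TATAAA (the core of the TATA box), GGCGGG (the core of GC boxes), and CTTTTCC (a run of pyrimidines), on both strands. ATGGCG or CCGGAAG can share letters with GGCGGG or its complement where they adjoin. The windows of *Rpl10*, *Rpl6*, and *Rpl4* end inside the transcript used here. In *Rpl4* that transcript starts at 64173375, so that the marked CTTTTCC is its first bases and not sequence in front of it. *Rps28*, *Rpl37*, and *Rps2* had the largest falls.
*Rps28*, chr17:33824563-33824682, minus strand: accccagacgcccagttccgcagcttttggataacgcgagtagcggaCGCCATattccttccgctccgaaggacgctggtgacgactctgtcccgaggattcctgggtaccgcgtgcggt
*Rpl37*, chr15:5116493-5116612, plus strand: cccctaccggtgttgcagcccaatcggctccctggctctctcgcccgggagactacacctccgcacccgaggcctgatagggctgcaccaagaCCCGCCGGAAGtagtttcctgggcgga
*Rps2*, chr17:24719943-24720062, plus strand: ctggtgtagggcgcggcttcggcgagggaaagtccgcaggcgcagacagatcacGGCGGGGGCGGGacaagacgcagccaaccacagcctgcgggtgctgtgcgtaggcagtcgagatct
*Rpl10*, *Rpl6*, and *Rpl4* had the smallest differences, none of which passed the test.
*Rpl10*, chrX:74270696-74270815, plus strand: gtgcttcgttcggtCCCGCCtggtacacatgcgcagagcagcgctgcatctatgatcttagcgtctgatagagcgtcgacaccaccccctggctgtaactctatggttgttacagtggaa
*Rpl6*, chr5:121204381-121204500, plus strand: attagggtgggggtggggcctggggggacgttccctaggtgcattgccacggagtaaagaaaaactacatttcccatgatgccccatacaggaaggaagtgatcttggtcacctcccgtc
*Rpl4*, chr9:64173267-64173386, plus strand: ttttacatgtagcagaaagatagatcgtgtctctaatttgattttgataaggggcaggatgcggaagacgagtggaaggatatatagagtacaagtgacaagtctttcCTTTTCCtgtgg

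Bases G and C made up 61.7%, 66.7%, and 67.5% of the first 3 of these windows and 55%, 55%, and 40% of the last 3. Over the whole 300 bases, CCGGAAG was in 24 of the 60 promoters (40%), against 9.08% of 27025 RefSeq promoters, and ATGGCG was in 17 (28.3%), against 9.08%. GGCGGG was in 36 (60%), against 35.2%, and CTTTTCC in 10 (16.7%), against 8.22%. TATAAA was in 5 (8.33%), against 14.1%. In slow-growing PNs, the median log2 fold change was -1.43 for 21 tested genes with CCGGAAG and -1.37 for 35 without it. It was -1.41 with and -1.36 without ATGGCG (14 and 42 genes), -1.40 and -1.34 for GGCGGG (35 and 21 genes), -1.33 and -1.40 for CTTTTCC (9 and 47 genes), and -1.62 and -1.37 for TATAAA (5 and 51 genes). In fast-growing PNs the medians with and without a match were -1.08 and -0.97, -1.07 and -0.98, -1.03 and -0.96, -0.96 and -1.05, and -1.11 and -0.99 in the same order. These differences were not tested.

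In slow-growing PNs, ribosomal protein genes were lower than in controls across both subunits. Of the 81 genes, 76 passed the filter on low counts and were tested. By the quasi-likelihood F test of edgeR, with a threshold of 0.05 on p-values adjusted over all genes (Benjamini-Hochberg), 66 of these 76 fell and 0 rose, where 7.13% of all 15714 tested genes fell and 4.12% rose. Their log2 fold changes ranged from -2.85 to -0.30, with a median of -1.37, where the median over all tested genes was 0.038. The fall was seen in 30 of 32 tested genes of the small subunit, with a median of -1.54, and in 36 of 44 of the large subunit, with a median of -1.29. Every slow-growing PN lay below every control for 71 of the 76 genes, against 12.4% of all tested genes.

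Among the proteins of the stalk of the large subunit, which recruits translation factors, *Rplp2* fell most. It was at 186, 297, and 272 CPM in controls and at 41.6, 73.5, 67.8, 47.5, and 72.2 CPM in slow-growing PNs, so that the highest PN was far below the lowest control. Its log2 fold change was -2.10 (SE 0.25, adjusted p = 0.00244, edgeR). *Rplp1*, which pairs with it in the stalk, was at 341, 396, and 365 CPM in controls and 98.8, 140.4, 153, 139, and 199.6 CPM in slow-growing PNs. These groups did not overlap either, and *Rplp1* fell by 1.37 on the log2 scale (SE 0.22, adjusted p = 0.00727, edgeR). *Rplp0*, the base of the stalk, went from 200.3, 303, and 329 CPM to 109, 138, 115, 88.8, and 126 CPM, a log2 fold change of -1.31 (SE 0.22, adjusted p = 0.00806, edgeR).

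Several small-subunit genes fell to between 28.4% and 33.8% of their control level. *Rps2*, whose protein lies at the entry of the mRNA channel, was at 373, 522, and 597 CPM in controls and 123, 155, 154, 143, and 151 CPM in slow-growing PNs. The PNs were close to each other and all below the controls, with a level of 28.4% of controls (log2 fold change -1.82, SE 0.19, adjusted p = 0.00196, edgeR). *Rpsa*, also known as the laminin receptor, was at 385, 601, and 607 CPM in controls and 161, 239, 182, 133, and 208 CPM in slow-growing PNs (log2 fold change -1.56, SE 0.25, adjusted p = 0.00678, edgeR). *Rps19*, which is mutated in Diamond-Blackfan anemia, was at 101, 193, and 176 CPM in controls and 34.6, 63.8, 57.8, 42.6, and 51.9 CPM in slow-growing PNs (log2 fold change -1.69, SE 0.27, adjusted p = 0.00661, edgeR). In both genes control 3 was the control nearest to the PNs, and no library overlapped. *Rps16*, of the same subunit, fell by 1.62 on the log2 scale (SE 0.26, adjusted p = 0.00681, edgeR), to 32.5% of controls.

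A set of 10 tested genes did not pass the threshold, among them *Rps6*, *Rpl4*, *Rpl5*, *Rpl6*, *Rpl10*, and *Rpl17*. *Rps6*, the target of S6 kinase, was at 221, 366, and 337 CPM in controls and 199, 209, 214, 192, and 216 CPM in slow-growing PNs. All 5 PNs were just under control 3, and the log2 fold change was -0.62 (95% interval -1.07 to -0.18, adjusted p = 0.0766, edgeR). *Rpl4*, which lines the exit tunnel, had the smallest difference, at 363, 506, and 484 CPM in controls and 406, 386, 350.2, 330.2, and 408 CPM in slow-growing PNs. These groups overlapped (log2 fold change -0.30, 95% interval -0.74 to 0.13, adjusted p = 0.297, edgeR). *Rpl5* and *Rpl11*, whose proteins bind MDM2 together as part of a particle with 5S ribosomal RNA, differed in their calls. *Rpl11* fell from 346 ± 21.9 CPM in controls to 179 ± 13.6 CPM in slow-growing PNs (SD, log2 fold change -0.99, SE 0.15, adjusted p = 0.00508, edgeR), and *Rpl5* went from 463 ± 121 to 285 ± 24.0 CPM (log2 fold change -0.74, SE 0.21, adjusted p = 0.0587, edgeR). Every slow-growing PN was below every control for both genes, and the difference between these genes was not tested. Without control 3, *Rps6*, *Rpl5*, *Rpl6*, and *Rpl17* passed the threshold as well, with log2 fold changes of -0.82, -0.95, -0.60, and -0.74 (adjusted p = 0.0189, 0.0164, 0.0427, and 0.0225, edgeR).

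**Figure D2:**
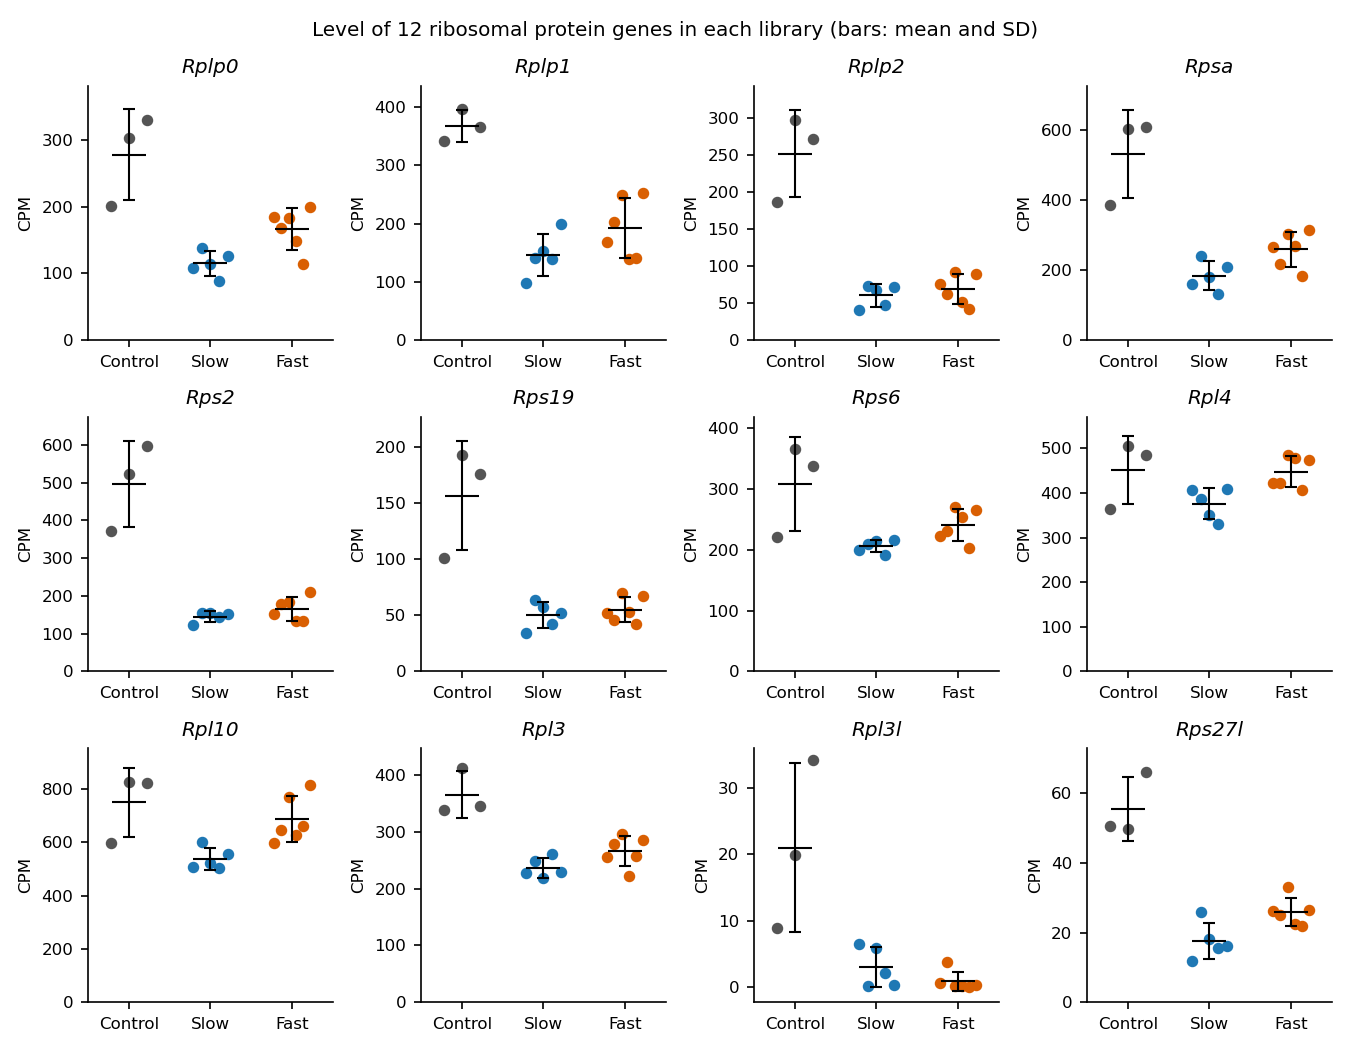
Levels of 12 ribosomal protein genes in CPM, with 1 point per library and bars for the mean and SD of controls (n = 3), slow-growing PNs (n = 5), and fast-growing PNs (n = 6). *Rplp2* and *Rps2* fell to well below every control in both PN groups, and *Rpl4* and *Rpl10* overlapped with the controls.

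In fast-growing PNs, a like number of ribosomal protein genes was lower than in controls. Of 78 tested genes, 65 fell and 0 rose at an adjusted p under 0.05 (edgeR with Benjamini-Hochberg adjustment), where 16.7% of all 16037 tested genes fell and 14.8% rose. Their median log2 fold change was -0.99, against 0.019 over all tested genes. The count was 29 of 32 genes of the small subunit, with a median of -1.11, and 36 of 46 of the large subunit, with a median of -0.97. Every fast-growing PN lay below every control for 58 of the 78 genes, against 15.2% of all tested genes. This comparison uses the same 3 controls as the slow-growing PNs, and so a deviation of these controls enters both. With that limit, 64 genes fell in both PN groups, 2 (*Rps4x* and, named after its values were seen, *Rpl7*) in slow-growing PNs alone, and 1 (*Rpl3l*) in fast-growing PNs alone, and such differences between calls are not tests of a difference between the PN groups.

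*Rplp2* was again among the largest falls, with a lowest, median, and highest level of 42.2, 68.8, and 92.3 CPM in fast-growing PNs, all below the controls at 186 CPM or more (log2 fold change -1.92, SE 0.27, adjusted p = 0.000674, edgeR). *Rps2* ranged from 132 to 211 CPM with a median of 164 CPM, against 373 CPM in the lowest control (log2 fold change -1.65, SE 0.21, adjusted p = 0.000369, edgeR). *Rps19* ranged from 42.2 to 70.3 CPM with a median of 52.7 CPM (log2 fold change -1.56, SE 0.24, adjusted p = 0.00113, edgeR). In each of these 3 genes the groups did not overlap. *Rpsa* had a smaller fall, with a median of 267 CPM and a range of 183 to 315 CPM (log2 fold change -1.09, SE 0.22, adjusted p = 0.00527, edgeR). *Rplp0*, with a range of 114 to 199 CPM, came close to control 3, at 200.3 CPM (log2 fold change -0.80, SE 0.22, adjusted p = 0.0205, edgeR). Its call was lost without control 4 or control 5 (adjusted p = 0.0803 and 0.108, edgeR). *Rplp1* fell by 0.99 on the log2 scale (SE 0.22, adjusted p = 0.00812, edgeR), from 367 ± 27.6 to 192 ± 51.2 CPM.

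The genes that stayed nearest to the controls were largely those of the slow-growing comparison. *Rpl4* had a lowest, median, and highest level of 406, 449, and 485 CPM in fast-growing PNs, within the range of the controls (log2 fold change -0.065, 95% interval -0.41 to 0.28, adjusted p = 0.792, edgeR). *Rpl17*, which also lines the exit tunnel, ranged from 219 to 304 CPM, against 196 to 326 CPM in controls (log2 fold change -0.085, 95% interval -0.52 to 0.35, adjusted p = 0.783, edgeR). For *Rpl6* the log2 fold change was -0.16 (95% interval -0.47 to 0.15, adjusted p = 0.428, edgeR), and for *Rpl10* it was -0.18 (95% interval -0.58 to 0.21, adjusted p = 0.48, edgeR). *Rps6* was at 202 to 270.3 CPM with a median of 242 CPM, and overlapped with control 3 (log2 fold change -0.41, 95% interval -0.83 to 0.0068, adjusted p = 0.125, edgeR). Without control 3, *Rps6*, *Rpl5*, and *Rps4x* passed the threshold, with log2 fold changes of -0.61, -0.72, and -0.73 (adjusted p = 0.015, 0.00861, and 0.0152, edgeR).

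**Figure D3:**
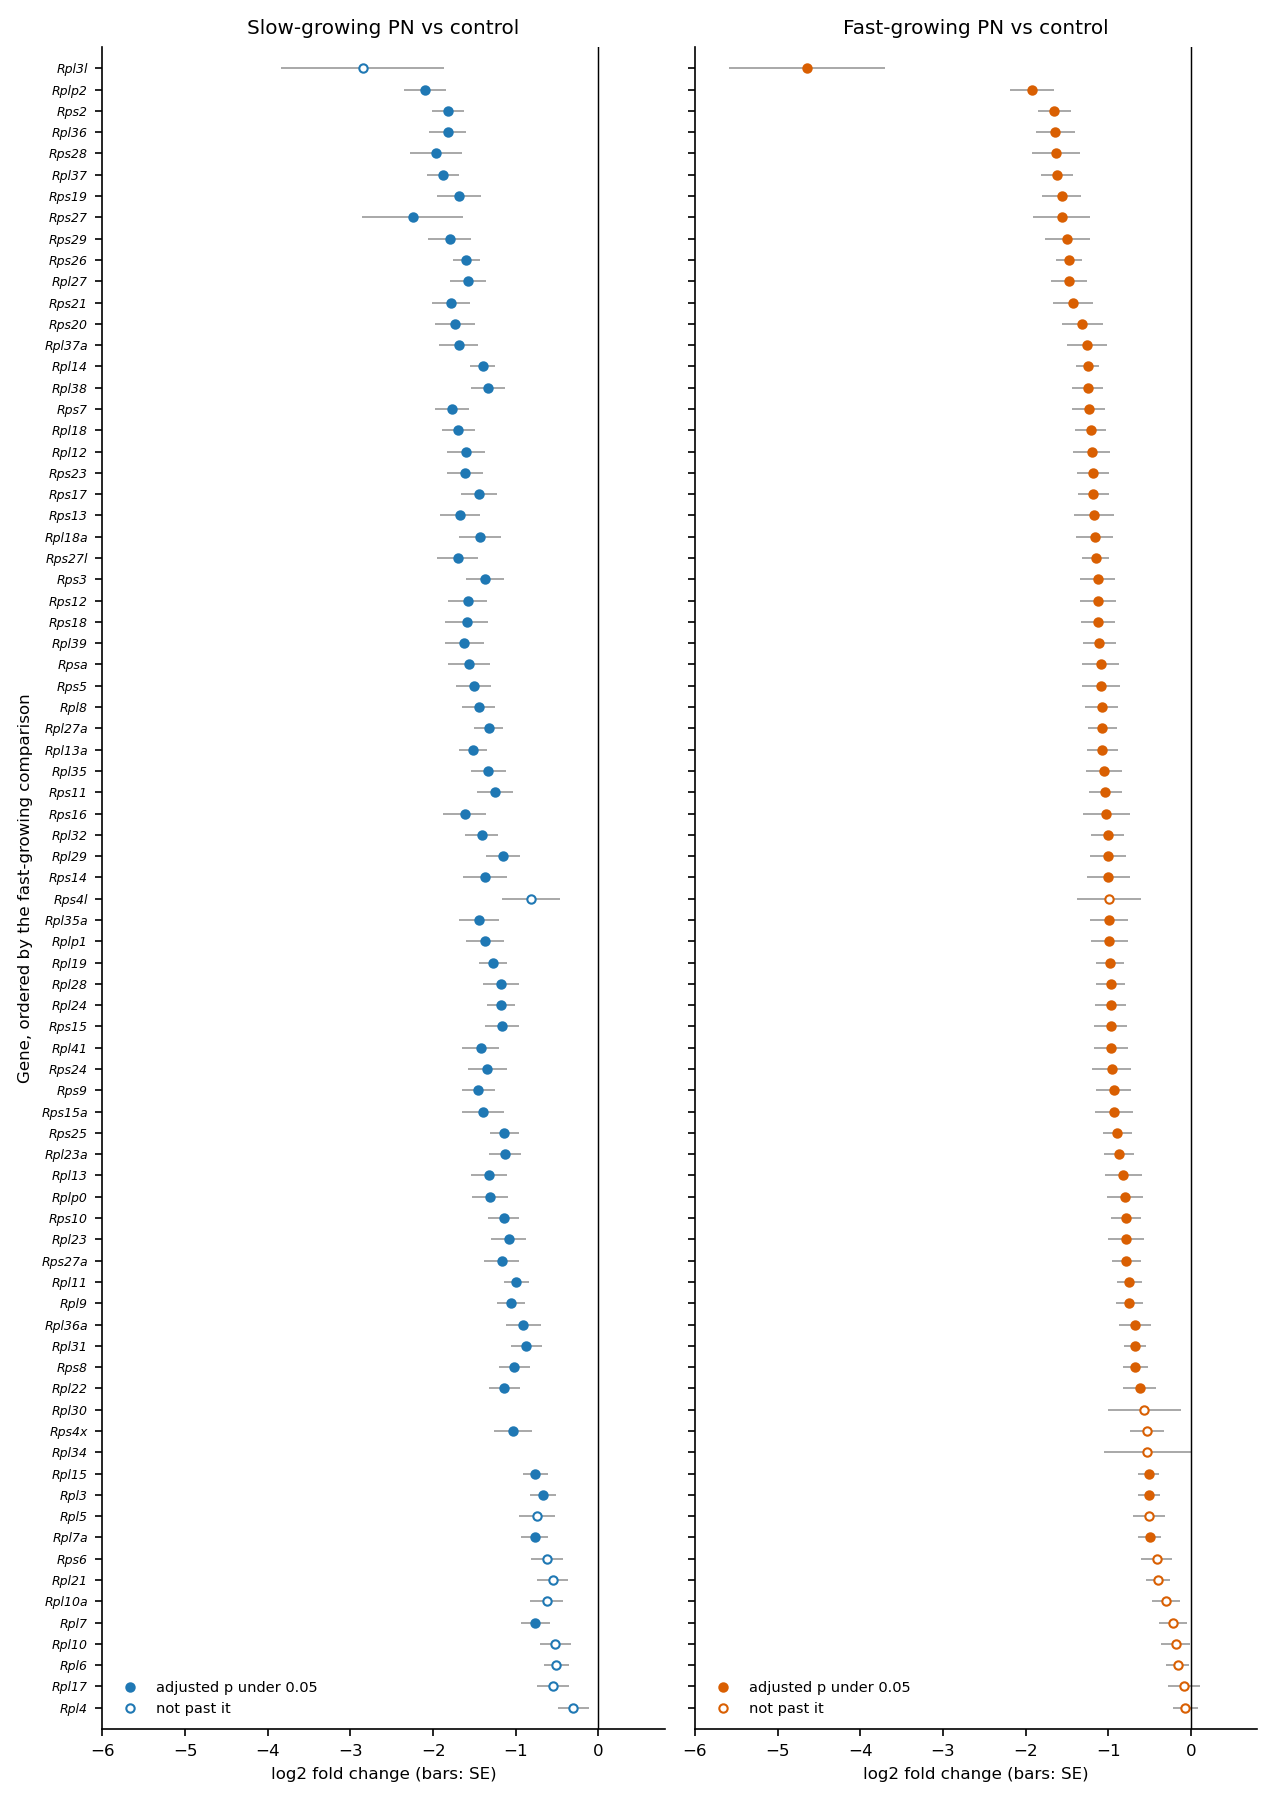
Log2 fold change of each tested ribosomal protein gene against controls, in slow-growing PNs (left, 76 genes) and fast-growing PNs (right, 78 genes), with bars for the SE. Filled points passed an adjusted p of 0.05 (edgeR) and open points did not. All points lie below 0, from -2.85 to -0.30 on the left and from -4.64 to -0.065 on the right.

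Fast- and slow-growing PNs were compared directly to see whether the level of ribosomal protein genes went with growth. No gene of the 75 tested was called in either direction by edgeR at an adjusted p under 0.05 (0 of 75, against 1.27% of all 15465 tested genes, of which 0.802% were higher). At an unadjusted p under 0.05 there were 40, against 20.4% of all tested genes. DESeq2's Wald test called 9 of 78 genes higher (11.5%, against 4.91% of all genes it tested), limma-voom 0 (against 0.175%), and an edgeR fit with all 3 groups 1 (against 1.35%). A gene that was not called was not thereby shown to be equal in the PN groups. The edgeR count was 9 of 76 without slow-growing PN 1198A, 2 of 74 without fast-growing PN 1071, and 1 of 75 without slow-growing PN 1203. Of all tested genes, 5.69%, 1.69%, and 1.43% were then higher, so that calls over the whole table rose as well. In sign, 74 of the 75 genes were higher in fast-growing PNs, against 46.5% of all tested genes, with a median log2 fold change of 0.34, against -0.033. Every fast-growing PN lay above every slow-growing PN for 5 genes, against 2.1% of all tested genes. These were *Rps7*, *Rpl15*, *Rpl17*, *Rpl22*, and *Rps13*, of which *Rps7*, *Rpl15*, *Rpl22*, and *Rps13* are named here after their values were seen.

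Markers of other cell types were also compared between the PN groups. The summed level of 4 macrophage genes was 38.8, 183, 51.1, 23.4, and 54.0 CPM in slow-growing PNs and 114 to 332 CPM in fast-growing PNs, and that of 4 fibroblast genes 2862, 4344, 2833, 953, and 2731 CPM against 3504 to 7994 CPM. Slow-growing PN 1198A, without which 9 ribosomal protein genes passed, was the highest of its group in both and lay within the ranges of the fast-growing PNs. The median log2 fold change was 1.73 over the macrophage genes and 1.09 over the fibroblast genes. None of these genes was called by edgeR (0 of 4 and 0 of 4), and 4 of 4 and 4 of 4 had an unadjusted p under 0.05. The medians were 0.87 for proliferation, 0.45 for lymphocyte, -0.18 for SC, -0.71 for neuron, -1.61 for muscle, and -3.85 for fat genes, also with 0 called and with 0, 0, 3, 0, 1, and 6 at an unadjusted p under 0.05. The part of these in the levels of ribosomal protein genes was not tested.

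The lowest adjusted p was that of *Rps7*, at 40.6, 53.4, 51.4, 48.5, and 46.4 CPM in slow-growing PNs and 56.9 to 83.2 CPM in fast-growing PNs (log2 fold change 0.54, SE 0.12, adjusted p = 0.0531, edgeR). *Rpl17* was at 189, 194, 197, 188, and 199 CPM in slow-growing PNs and 219 to 304 CPM, with a median of 274 CPM, in fast-growing PNs. The slow-growing PNs were close to each other and below every fast-growing PN (log2 fold change 0.47, 95% interval 0.23 to 0.72, adjusted p = 0.0568, edgeR). *Rpl17* passed without slow-growing PN 1198A or fast-growing PN 1071 (adjusted p = 0.0423 and 0.0474, edgeR), and *Rps27l*, *Rpl39*, and *Rps4x* without 1198A (adjusted p = 0.0226, 0.0416, and 0.0287, edgeR). *Rps27l*, *Rps16*, and *Rpl30* had the largest positive differences. *Rps16* was at 84.0, 126, 120, 79.8, and 124 CPM in slow-growing PNs and 110 to 227 CPM in fast-growing PNs, which overlapped (log2 fold change 0.61, 95% interval 0.12 to 1.09, adjusted p = 0.149, edgeR). *Rpl30* rested on a few counts per library, at most 20. *Rplp2* and *Rps19*, with large falls against controls, had log2 fold changes of 0.19 (95% interval -0.32 to 0.70) and 0.14 (95% interval -0.27 to 0.54) between the PN groups, and *Rpl27* and *Rpl38* had 0.12 and 0.095. *Rps4l* was the 1 gene with a negative value, -0.17 (95% interval -0.80 to 0.46).

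Transcript length was taken up next, because other genes with short transcripts fell as well. The median length of the 81 genes was 833 nt, against 2250 nt over all genes of the table with a length. Among other genes of 1000 nt or less, 27.2% of 998 fell in slow-growing PNs and 39.1% of 1078 in fast-growing PNs. The part of the counts was taken over a narrower class of other short genes. The 947 other protein-coding genes of 750 nt or less held 2.61% ± 0.229 (SD) of the counts in controls, 2.58% ± 0.592 in the slow- and 2.06% ± 0.297 in the fast-growing PNs. Slow-growing PNs, at 1.93% to 3.51%, overlapped the controls, at 2.47% to 2.88%. Fast-growing PNs were at 1.80% to 2.64%, and PN 1191, at 2.64%, was the only one of them not below every control. In slow-growing PNs, the median log2 fold change of other genes was -0.47 at 500 nt or less, -0.83 at 501 to 750 nt, -0.63 at 751 to 1000 nt, -0.36 at 1001 to 1500 nt, -0.086 at 1501 to 2500 nt, and 0.18 above that. Ribosomal protein genes had medians of -1.57, -1.58, -1.22, -1.31, and -0.95 in the first 5 of these classes, lower than the other genes in each. In fast-growing PNs their medians were -1.21, -1.07, -0.82, -0.97, and -0.57, against -0.48, -0.79, -0.64, -0.34, and -0.095 for other genes. The longest class held 2 ribosomal protein genes, *Rps15a* and, named after its values were seen, *Rps20*, whose annotated models have 5179 and 3706 nt. Each is the longest model of its gene, and the length of the mRNA present here was not measured. The class of these genes is thus uncertain, and the class medians, the correlations, and the trend removal below use these model lengths. *Rps15a* was at 180, 332, and 288 CPM in controls and 72.1 to 126 CPM in slow-growing PNs, and fell by 1.40 on the log2 scale (SE 0.26, adjusted p = 0.0119, edgeR), a call that was lost without control 4 or control 5 (adjusted p = 0.062 and 0.0579). Across the tested ribosomal protein genes, Spearman's rho of length and log2 fold change was 0.34 over 76 genes in slow-growing PNs and 0.33 over 78 in fast-growing PNs, a description across genes of the same libraries, and over all 15560 and 15873 tested genes with a length it was 0.30 and 0.25. For the ribosomal protein genes, Pearson's correlation with log2 length was 0.27 and 0.15. Their mean CPM over all libraries had a larger rho with log2 fold change than length had, at 0.56 and 0.54.

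**Figure D4:**
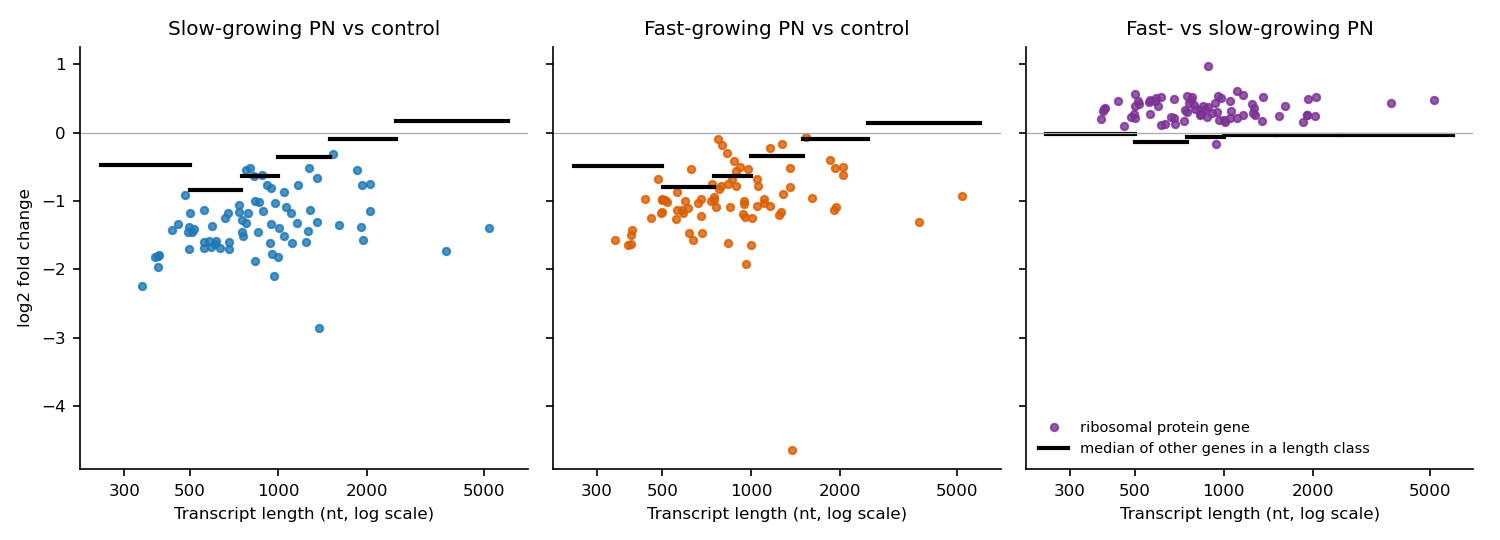
Log2 fold change of each ribosomal protein gene (points) against its transcript length in nt on a log axis, for the 3 comparisons. Black lines give the median of all other tested genes in 6 length classes, the first and last drawn to the edge of the points. Against controls, short genes of both kinds lie lower and most points lie under the lines, and between the PN groups the lines lie near 0 and 74 of 75 points above 0.

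When the trend of length was fitted in each library and removed, fewer ribosomal protein genes passed the threshold. In slow-growing PNs, 32 of the 76 genes fell and 0 rose, against 3.11% and 4.45% of all tested genes, and their median log2 fold change was -0.61, against 0.21 over all tested genes. In fast-growing PNs, 28 fell and 3 rose, against 12% and 16.4% of all tested genes, with a median of -0.39, against 0.13. The genes that rose were *Rpl6*, *Rpl10*, and *Rpl17*, with log2 fold changes of 0.35, 0.49, and 0.59 (adjusted p = 0.0438, 0.0423, and 0.0265, edgeR). All 3 lay above the median of all genes, which this scaling moved from 0.019 to 0.13. The falls of *Rplp2* (-1.40 and -1.32 in slow- and fast-growing PNs), *Rps2* (-1.11 and -1.04), *Rpsa* (-1.21 and -0.79), and *Rps19* (-0.87 and -0.85) kept an adjusted p under 0.05 in both (edgeR). *Rplp1*, *Rps27a*, *Rpl3*, *Rpl9*, *Rpl11*, and *Rpl41* did not in either. These results depend on the length given to each gene. The models used for *Rpsa* and *Rplp2*, of 1938 and 964 nt, are the longest of their genes, and shorter ones were not tried. With the trends of length and GC content removed together, 31 genes fell and 0 rose in slow-growing PNs, against 3.19% and 3.92% of all tested genes. In fast-growing PNs, 30 fell and 2 rose (*Rpl17* and, named after its values were seen, *Rpl10a*, with log2 fold changes of 0.47 and 0.45), against 12.6% and 15.4%. *Rplp2*, *Rps2*, and *Rpsa* kept an adjusted p under 0.05 in both comparisons with this removal too, while *Rps19* was at 0.0578 in slow-growing and 0.0236 in fast-growing PNs (edgeR). Removing a trend fitted over all genes also takes away any change that goes with length for another reason, and the data used here cannot tell them apart. Between fast- and slow-growing PNs, 1 gene, *Rps7*, was higher after the removal (log2 fold change 0.47, adjusted p = 0.0455, edgeR), against 1.25% of all tested genes, and the median was 0.27, against -0.076.

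**Figure D5:**
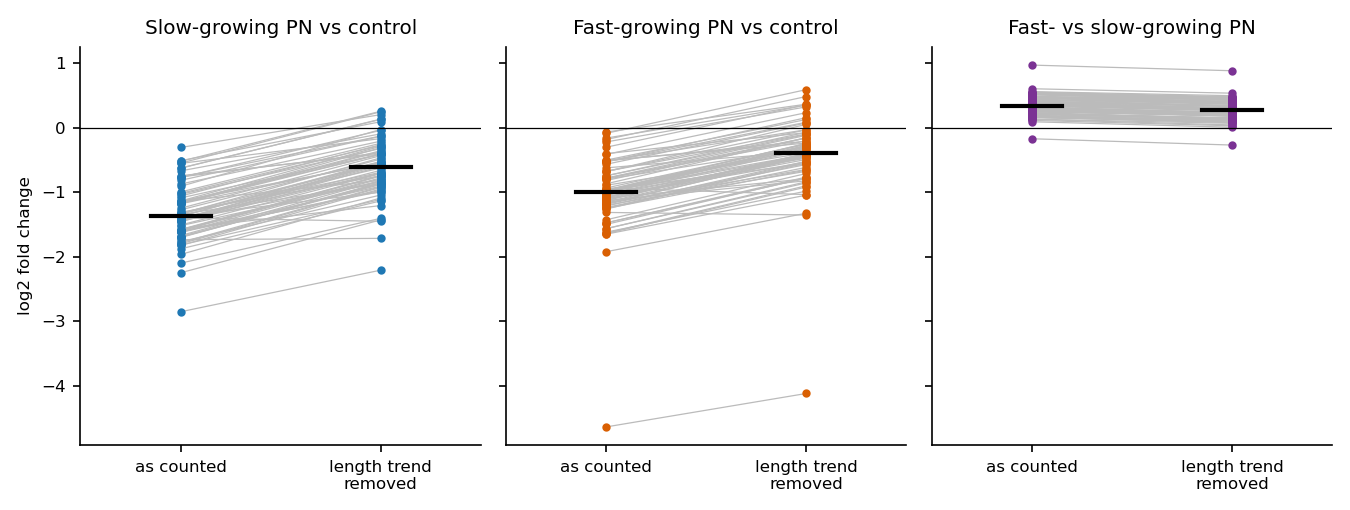
Log2 fold change of each ribosomal protein gene as counted and after the trend of transcript length was removed from every library, for the 3 comparisons. Grey lines join a gene and black bars give the medians, which moved from -1.37 to -0.61 in slow-growing PNs, from -0.99 to -0.39 in fast-growing PNs, and from 0.34 to 0.27 between the PN groups.

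Close copies of ribosomal protein genes were set beside their partners, and differences within a pair were not tested. *Rpl3l* is a form of *Rpl3* made in skeletal and heart muscle. It was at 8.89, 19.9, and 34.2 CPM in controls, 6.46, 0.15, 5.89, 2.10, and 0.289 CPM in slow-growing PNs, and 0.0739 to 3.81 CPM, with a median of 0.281 CPM, in fast-growing PNs. The muscle totals were 3858, 8937, and 15851 CPM in the controls and 3527, 30.9, 3690, 1114, and 63.5 CPM in the slow-growing PNs in the same order, so that both rose together in the controls and, apart from PNs 1079 and 1202, in the slow-growing PNs. Among fast-growing PNs the order differed. PN 1071 was the highest in both, while PN 1214 had the lowest *Rpl3l* level, from 1 count, and PN 1216 the lowest muscle total (80.0 CPM against 117 CPM in 1214). The part of muscle in this result was not tested. *Rpl3l* fell by 4.64 in fast-growing PNs (SE 0.94, adjusted p = 0.00499, edgeR), and its log2 fold change in slow-growing PNs was -2.85 (SE 0.98, adjusted p = 0.0955, edgeR). *Rpl3* was at 365 ± 40.9, 237 ± 17.8, and 266 ± 26.3 CPM, with log2 fold changes of -0.67 (adjusted p = 0.0304) and -0.51 (adjusted p = 0.0158) in slow- and fast-growing PNs (edgeR). The call of *Rpl3* was lost without control 4 or control 5 in both comparisons (adjusted p = 0.15 and 0.101 for slow-growing PNs, 0.0843 and 0.0547 for fast-growing PNs), and without slow-growing PN 1079, 1198A, 1202, or 1206 (adjusted p of 0.0508 to 0.0923).

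*Rps27l*, a copy of *Rps27* that p53 induces, was at 50.6, 49.8, and 66.1 CPM in controls, 11.8, 25.8, 18.3, 15.7, and 16.2 CPM in slow-growing PNs, and 22.0 to 33.2 CPM in fast-growing PNs. All PNs were below all controls, with log2 fold changes of -1.70 (SE 0.25, adjusted p = 0.00433) and -1.15 (SE 0.17, adjusted p = 0.000809) in the PN groups (edgeR). *Rps27* itself had at most 21 counts in a library and a length of 345 nt, the shortest of all. Its fall in slow-growing PNs (log2 fold change -2.25, adjusted p = 0.0477, edgeR) rested on 58 counts in the controls and 22 in the PNs, and was lost without any library but slow-growing PN 1198A (adjusted p of 0.0613 to 0.163). In fast-growing PNs its log2 fold change was -1.56 (SE 0.34, adjusted p = 0.00714, edgeR), with every PN below every control, and this call was kept without any one library and lost with the length trend removed (adjusted p = 0.116). *Rpl39*, a small protein of the exit tunnel, fell from 348 ± 84.4 to 117 ± 24.5 and 168 ± 31.3 CPM (log2 fold changes -1.62 and -1.11, adjusted p = 0.00433 and 0.00307, edgeR), and its copy *Rpl39l* had 7, 1, and 3 counts in all in controls, slow-growing PNs, and fast-growing PNs. With the length trend removed, *Rpl39* kept its call in slow-growing PNs (adjusted p = 0.0425, edgeR) but not in fast-growing PNs (adjusted p = 0.082, edgeR). With length and GC content removed, it passed in both (adjusted p = 0.0245 and 0.0372, edgeR). *Rps4x* fell by 1.03 in slow-growing PNs (adjusted p = 0.027, edgeR; 0.0591 to 0.129 without control 4, control 5, or slow-growing PN 1079, 1202, or 1206), and had a log2 fold change of -0.53 in fast-growing PNs (adjusted p = 0.0817, edgeR). *Rps4l*, which the annotation lists as a transcribed pseudogene, was at 8.74 ± 4.67, 5.10 ± 1.14, and 4.53 ± 1.70 CPM and passed no test.

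Ribosomal proteins made as a fusion with ubiquitin or a ubiquitin-like protein were examined together. *Rps27a* fell by 1.17 in slow-growing PNs (SE 0.21, adjusted p = 0.0118, edgeR) and by 0.78 in fast-growing PNs (SE 0.17, adjusted p = 0.00742, edgeR). The first of these calls was lost without control 4 or control 5 (adjusted p = 0.0628 and 0.0593). *Fau*, whose symbol falls outside the rule, had a log2 fold change of -1.84 in slow-growing PNs (SE 0.24, adjusted p = 0.00341, edgeR) and of -1.28 in fast-growing PNs (SE 0.27, adjusted p = 0.00619, edgeR). *Gnb2l1*, now *Rack1*, which encodes a scaffold of the small subunit, had log2 fold changes of -1.43 and -0.72 (adjusted p = 0.0072 and 0.0145, edgeR). Of a list of 7 tested genes outside the rule, *Fau* and *Gnb2l1* among them, 6 fell in the slow-growing and 5 in the fast-growing comparison. With the length trend removed, 3 and 1 fell, so *Fau* and *Gnb2l1* did not both keep their calls in the latter. *Rps3a1* was not called in the latter (log2 fold change -0.37, adjusted p = 0.238, edgeR). *Rpl7l1* was positive in both, at 0.32 and 0.21, and passed no test. *Rps3a1* and *Rpl7l1* are named here after their values were seen.

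Other genes of translation were examined beside them. In slow-growing PNs 7.13% of all tested genes fell and 4.12% rose, and in fast-growing PNs 16.7% fell and 14.8% rose. Of 19 elongation and initiation factors and other mRNAs with a terminal pyrimidine run, 7 fell and 0 rose in slow-growing PNs, with a median log2 fold change of -0.46, and 8 fell and 1 rose in fast-growing PNs, with a median of -0.32. *Eef1a1*, *Eef2*, and *Tpt1*, whose mRNAs also begin with a pyrimidine run, had log2 fold changes of -0.34, -0.065, and -0.49 in slow-growing PNs and 0.13, 0.042, and -0.11 in fast-growing PNs, and passed no test (edgeR, adjusted p of 0.195 or more). Of 32 genes of ribosome biogenesis, 4 fell in slow-growing PNs, and 7 fell (21.9%) and 1 rose in fast-growing PNs. Of 17 regulators of ribosome synthesis, 0 were called in slow-growing PNs, with 3 at an unadjusted p under 0.05, and 3 fell (17.6%) and 1 rose in fast-growing PNs, near or below the shares of all tested genes. Named here after their values were seen, these were *Eif4ebp1* and *Eif4ebp2*, inhibitors of translation initiation that mTORC1 phosphorylates (log2 fold changes -2.71 and -0.54, adjusted p = 1.85e-05 and 0.0412, edgeR), *Larp4*, which binds poly(A) tails (-0.46, adjusted p = 0.00852, edgeR), and *Rictor*, a subunit of mTORC2 (0.36, adjusted p = 0.0366, edgeR). *Myc* (log2 fold change -0.28 and 0.30), *Rps6kb1*, the S6 kinase (0.16 and -0.074), and *Larp1*, which binds pyrimidine runs (0.17 and 0.034), passed no test. Proteins of the mitochondrial ribosome had a different order. Of 77 tested genes, with a median length of 1226 nt, 51 fell in slow-growing PNs (median -0.89) and 72 in fast-growing PNs (median -1.08), and between fast- and slow-growing PNs their median was -0.23, against 0.34 for the cytosolic genes. The difference between these lists was not tested. With the length trend removed, 15 mitochondrial genes fell in slow-growing PNs (median -0.37) and 45 in fast-growing PNs (median -0.72), and 1 was lower in fast- than in slow-growing PNs (median -0.28). Of the translation factors, 1 fell in the slow-growing PNs after this removal (median 0.0089), and 1 fell and 2 rose in the fast-growing PNs (median 0.077). The biogenesis genes then had medians of 0.016 and -0.079 and the regulators of 0.085 and -0.062, and the calls left were 2 falls of biogenesis genes and 3 of regulators, all in fast-growing PNs (edgeR). Of all tested genes, 3.11% fell and 4.45% rose in slow-growing PNs after this removal, and 12% fell and 16.4% rose in fast-growing PNs.

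Muscle and fat moved with the groups. Every control had a higher mean log2(CPM + 1) over the 14 muscle genes than every PN, at 7.76 to 9.76 in controls, 1.27 to 7.67 in slow-growing PNs, and 2.41 to 7.02 in fast-growing PNs, and over the 9 fat genes, at 7.13 to 7.56, 1.12 to 6.08, and 0.991 to 3.41. In an edgeR fit with both scores as covariates, 0 ribosomal protein genes were called against controls, and 0 of all tested genes were. The median log2 fold change of ribosomal protein genes was then -1.07 in slow-growing PNs (median SE 0.44, against 0.21 without the scores) and -2.05 in fast-growing PNs (median SE 0.66, against 0.20), with 76 of 76 and 77 of 78 below 0 in sign. At an unadjusted p under 0.05 there were 40 and 57 of these genes, against 5.22% and 7.23% of all tested genes. Since the scores of controls and PNs do not overlap, muscle and fat content and the condition cannot be told apart. Among the slow-growing PNs, the muscle totals of 3527, 30.9, 3690, 1114, and 63.5 CPM stood beside shares of counts on ribosomal protein genes of 0.993%, 1.14%, 1.05%, 0.832%, and 1.05%. Among the fast-growing PNs 1053, 1071, 1179, 1191, 1214, and 1216, totals of 296, 2409, 137, 246, 117, and 80.0 CPM stood beside shares of 1.31%, 1.19%, 1.5%, 1.27%, 1.08%, and 1.48%. Macrophage, lymphocyte, and proliferation genes, with 4 genes tested in each list, had 0 genes called in either comparison with controls by edgeR, and at an unadjusted p under 0.05 there were 1, 1, and 0 in slow-growing PNs and 0, 1, and 0 in fast-growing PNs. Of 4 fibroblast genes, all 4 rose in fast-growing PNs and 0 in slow-growing PNs. Of the 14 muscle genes, 0 fell in slow-growing PNs (4 at an unadjusted p under 0.05) and 12 in fast-growing PNs, and of the 9 fat genes 1 and 9 fell. Of 6 SC genes, 1 rose in the slow- and 3 in the fast-growing PNs, and of 8 sensory neuron genes 0 were called in either (1 and 0 at an unadjusted p under 0.05).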

How the data were processed

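Gene counts were used as deposited. The methods and the submitters' processing notes give amplification of total RNA by the Ovation kit (version 2), alignment with TopHat2 2.0.9 to the mouse build mm10, and featureCounts 1.5.2, with which the authors made the counts. Strandedness and the treatment of reads with several matches are not given in the sources used here. A log-scale table of the series was not used. Counts were tested in edgeR 4.0.16 (R 4.3.3) with its expression filter, TMM scaling, and a quasi-likelihood fit of only the 2 groups compared, and p-values were adjusted over all tested genes (Benjamini-Hochberg, 0.05). CPM used TMM-scaled totals, and intervals are 95%. Intervals and floors cover counting error or the spread of these libraries only. Alternatives were DESeq2 1.42.0, limma 3.58.1, other scalings and filters, 1 fit of all groups, muscle and fat scores as covariates, trends of length or GC removed by offsets, and each library left out.

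Lengths came from the GENCODE M21 transcript paired with RefSeq, with 22758 symbols matched directly, 934 by an older symbol, and 370 not. Trends were splines with 4 degrees of freedom, fitted per library and recentred, and the recentring was chosen after the uncentred counts were seen. Leaving out *Rn45s* and *Malat1* was also added after seeing the data. Genes named were paralog pairs, genes of known roles, the 3 highest and 3 lowest fold changes per comparison, and the most abundant, longest, and shortest genes. The members and lists were chosen with earlier results of these data known. The fits were tested on simulated data, in which most of the smaller changes put in were not called, so that a gene without a call is not shown to be equal. Promoter sequences are from RefSeq (GRCm38.p6), without chromosome 18.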

Additional observations from a re-analysis of the deposited data

Results flagged for a closer look

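In the 62 groups of 5 or 6 PN libraries examined, 2 held a value far from the others, and chance flags about 1 in 20 such groups. *Rpl3l* was at 3.81 CPM in fast-growing PN 1071, where the other fast-growing PNs were at 0.0739 to 0.608 CPM, and this library also had the highest muscle score of its group, 7.02. *Rpl27* was at 44.5 CPM in slow-growing PN 1079, where the other slow-growing PNs were at 63.0 to 69.7 CPM.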

How the results depend on the processing

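No paired analysis was possible because each library was taken as a different mouse and the groups share no replicate numbers. With the length trend removed, 32 ribosomal protein genes fell in slow-growing PNs and 28 fell and 3 rose in fast-growing PNs. With length and GC content removed, the counts were 31, and 30 and 2. With length removed and no recentring, they were 32, and 24 and 3 (3.08%, and 10.8% and 16.2%, of all tested genes). With muscle and fat scores as covariates they were 0 and 0, and no gene of any kind was called. Between fast- and slow-growing PNs, 9 were higher by DESeq2 (4.91% of all genes it tested were), 1 in the fit of all 3 groups (1.35%), 1 with length removed (1.25%), and 1 with length and GC removed (1.31%), and 0 to 9 when a library was left out (0.0128% to 5.69%). Genes that fell numbered 47 to 71 in slow-growing PNs and 52 to 69 in fast-growing PNs when a library was left out, with the lowest count without control 4 (in slow-growing PNs also without control 5) and the highest without control 3. Of all tested genes, 2.43% to 9.57% and 10.2% to 17.4% then fell. Under the other scalings, filters, and tools, 63 to 74 fell in slow-growing PNs and 63 to 66 in fast-growing PNs, and of all tested genes 4.71% to 11% and 12.5% to 17.6% fell.

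Some log2 fold changes against controls turned positive, given here for the genes named by the rule. Among others, with length removed and with length and GC removed, *Rpl10a* was at 0.14 and 0.23 in slow-growing PNs. In fast-growing PNs *Rpl10a* was at 0.36 and 0.45, *Rpl7* at 0.33 and 0.18, *Rpl7a* at 0.13 and 0.14, and *Rpl34* at 0.16 and 0.22, with *Rpl36a* at 0.054 after the first removal. In slow-growing PNs with length removed, *Rpl10* was at 0.26, *Rps6* at 0.13, *Rpl6* at 0.095, *Rpl4* at 0.21, and *Rpl17* at 0.25. With length and GC removed, they were at 0.20, 0.054, 0.037, 0.089, and 0.12, and with no recentring at 0.27, 0.14, 0.10, 0.21, and 0.26. In fast-growing PNs with length removed, *Rpl10* was at 0.49, *Rps4x* at 0.087, *Rps6* at 0.24, *Rpl6* at 0.35, *Rpl4* at 0.37, *Rpl17* at 0.59, and *Rpl30* at 0.076. With length and GC removed, *Rpl10* was at 0.44, *Rps6* at 0.17, *Rpl6* at 0.31, *Rpl4* at 0.26, *Rpl17* at 0.47, and *Rpl30* at 0.16. With no recentring, *Rpl3* was at 0.016, *Rpl10* at 0.54, *Rps4x* at 0.15, *Rps6* at 0.29, *Rpl6* at 0.40, *Rpl4* at 0.42, *Rpl17* at 0.65, and *Rpl30* at 0.13. With total counts alone as library size, *Rpl4* was at 0.033 and *Rpl17* at 0.011. With a library left out, *Rpl4* ranged from -0.21 to 0.042 and *Rpl17* from -0.29 to 0.061, positive without control 4 or 5, and *Rpl38* between fast- and slow-growing PNs ranged from -0.019, without fast-growing PN 1179, to 0.19. The cause was not tested beyond these settings. Genes under 1 CPM, such as *Rps27*, *Rpl30*, and *Rpl34*, rest on few counts.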
